A study of Mus musculus with 8 samples.

Results

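The Sox, T-box, Gata, Sall and Zic factors were examined in molar mesenchyme of mice that had lost *Ezh2* there. They were taken by name, as every gene called Sox, Tbx, Gata, Sall or Zic followed by a number, plus *Eomes*, *Tbr1* and *T*. The rule found 37 of the 20926 genes of the table, namely 17 Sox, 13 T-box, 3 Gata and 4 Sall genes. The 5 Zic genes and 8 others (*Sox3*, *Sox14*, *Tbx5*, *Tbx10*, *Tbx20*, *Gata1*, *Gata4* and *Gata5*) were not analysed here. RNA was sequenced from molars of PN day 3 mice in 8 libraries. The 4 control libraries came from Ezh2fl/fl mice, which carry floxed *Ezh2* alleles and no Cre, and the 4 mutant libraries from Osr2-Cre;Ezh2fl/fl mice, which carry the same floxed alleles and an *Osr2* knock-in Cre. Both groups share the floxed alleles, the age and, per the labels, the C57BL/6 strain, while the study's methods describe a mixed background. The *Osr2* knock-in Cre recombines in mesenchyme of the tooth and in the alveolar bone around it and not in tooth epithelium, so *Ezh2* of epithelial cells is not targeted, and the labels state that the epithelium was taken off before RNA was isolated.

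Sox proteins bind DNA through an HMG box, T-box proteins through the T domain, and Gata, Sall and Zic proteins through zinc fingers. Genes of these families set cell identity in the embryo, and many of them are silent outside the tissues they pattern. Ezh2 is the catalytic subunit of Polycomb repressive complex 2, which methylates lysine 27 of histone H3, and developmental transcription factor genes with CpG-rich promoters are typical targets of this mark.

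The deposited values behave approximately as a number of reads plus 1, scaled within a library, with no correction for gene length. They corresponded to an estimated 48.3 M to 68.8 M reads per library, and 3 reads to a value of 0.0516 to 0.0758. *Ezh2* itself ranged from 38.3 to 55.0 in the control and from 23.2 to 36.0 in the mutant libraries, which did not overlap (p = 0.0286 in a two-sided exact permutation test, below which 4 libraries against 4 cannot go), and its log2 fold change was -0.46 (SE 0.16, adjusted p = 0.235 in limma). Epithelial transcripts were present in every library in spite of the dissection, with *Krt14* between 329 and 938. Control libraries 3 and 4 and mutant library 3 stood apart, with enamel protein *Enam* between 2048 and 5146 against 23.3 to 428 in the other 5. The female transcript *Xist* and the Y-linked *Ddx3y* were both present in 4 libraries, each at a value of at least 31.2. These were control libraries 1, 3 and 4 and mutant library 4, which therefore held RNA of both sexes. *Ddx3y* was at 31.2 or more in every control library, but at 0.0455 and 0.0424 in mutant libraries 2 and 3. The sexes were thus not balanced between the groups. *Xist* ranged from 0.373 to 767 within the control and from 0.414 to 2648 within the mutant libraries, so the libraries of a group were not all repeats of 1 sample. The study's methods give 4 samples per group, and the labels do not say how many animals each sample held. The p-values measure the spread between these samples. In these bulk samples, fewer cells of a type and less RNA per cell cannot be told apart.

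Levels differed widely within each family. Per kilobase of exon, the mean over the 8 libraries was highest for *Tbx2*, a T-box repressor, at 48.2, followed by the SoxC genes *Sox4* at 29.3 and *Sox12* at 25.1, then by *Tbx1* at 20.7 and *Sox9* at 17.4. *Sox18*, *Sall3*, *Sox11*, *Tbx3*, *Sall2*, *Sox21* and *Sall1* lay between 4.69 and 10.3 on this scale. *Gata2*, the highest Gata gene, was at 0.517, and *Sox1*, a factor of the neural plate, was the lowest member at 0.0128. Of the 37 members, 20 (11 Sox, 4 T-box, 1 Gata and 4 Sall genes) passed the filter on low values, which asked for a value of 1 or more in no fewer than 4 libraries. The other 17 had means of 0.0620 to 1.14 and between 0 and 149 estimated reads in a library. No member had every library of a group at or under 3 reads.

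**Figure D1:**
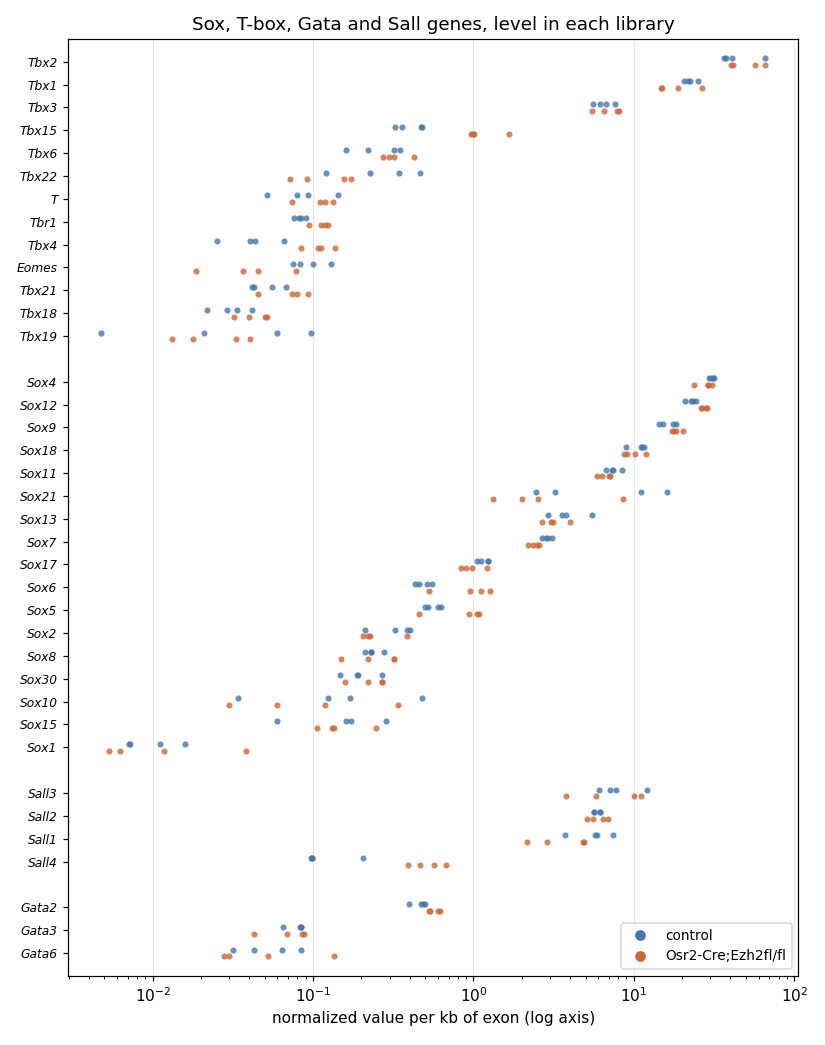
Each point is a library's value per kilobase of exon (log axis) for the 37 Sox, T-box, Gata and Sall genes, with control in blue and Osr2-Cre;Ezh2fl/fl in orange, ordered by mean level within each family. *Tbx2* is the highest at a mean of 48.2 and *Sox1* the lowest at 0.0128, and for most members the 2 colours overlap.

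In the mutant, 2 members rose, and both were low in the control. *Sall4* rose 4.21-fold and *Tbx15* 2.85-fold in the ratio of group means. No member was lower at an adjusted p under 0.05. Fold changes on the log2 scale are differences of mean log2(value + 1), which understates the change of low genes. Among genes over the filter, 2 of 20 members were called higher, beside 1.56% of the 14854 genes tested, and 0 of 20 were called lower, beside 0.512% (limma in both directions, and 0 lower also with voom). In a fit over all genes of the table the same 2 of 37 members were called higher, beside 1.22% of 20926 genes, and 0 of 37 were called lower, beside 0.339%. At an unadjusted p under 0.05 the fit over the filter held 6 members higher (*Sall4*, *Tbx15*, *Sox5*, *Sox6*, *Sox12* and *Gata2*), beside 8.27% of genes, and 2 lower (*Sall1* and *Sox7*), beside 4.87%. Over all genes these counts were 7 higher, beside 7.96%, and 4 lower, beside 4.51%. The directions over the filter were balanced, with 10 positive and 10 negative log2 fold changes and a median of -0.04, where the median of all genes tested was 0.01. By family, the median was -0.12 for the 11 Sox genes, 0.14 for the 4 T-box genes and -0.08 for the 4 Sall genes.

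**Figure D2:**
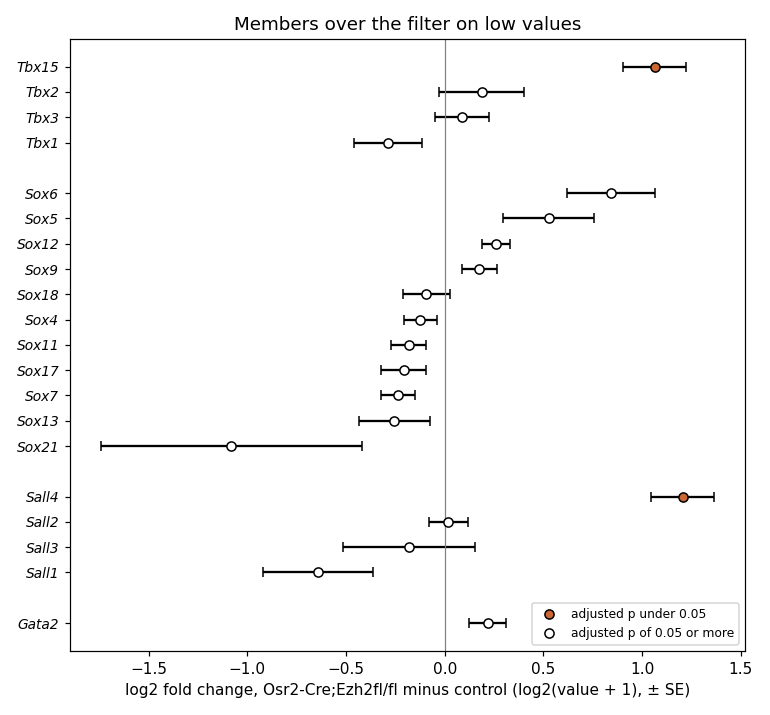
Log2 fold change, Osr2-Cre;Ezh2fl/fl minus control, with its standard error for the 20 members over the filter, sorted within each family. The filled points, *Sall4* at 1.21 and *Tbx15* at 1.06, have an adjusted p under 0.05, and the open points do not.

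In 6 of the 37 members all 4 mutant values lay above all 4 control values, beside 5.55% of all genes, and in 1 member all 4 lay below, beside 2.65%. The members above were *Sall4*, *Tbx15*, *Tbx4*, *Tbr1*, *Sox12* and *Gata2*, and the member below was *Sox7*. For each, the two-sided exact permutation test gave p = 0.0286, the smallest possible.

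*Sall4*, a zinc finger factor of pluripotent cells and of the limb bud, occupies bases 168748332 to 168767944 of chromosome 2 (mm10, minus strand). In control libraries 1 to 4 it was at 1.13, 0.547, 0.541 and 0.544, and in mutant libraries 1 to 4 at 2.15, 3.16, 2.56 and 3.76. These correspond to an estimated 64, 40, 30 and 35 reads against 113, 207, 180 and 290. Control library 1 was above the other controls and still below every mutant library. The means were 0.690 ± 0.292 and 2.91 ± 0.703 (SD, n = 4 each). The log2 fold change was 1.21 (SE 0.16, adjusted p = 0.00615 in limma). *Sall4* was the only member that reached the filter through its mutant libraries, since 1 of its control values was at least 1, and over all genes its adjusted p was 0.0068. Without the 3 enamel-rich libraries the log2 fold change was 1.13 with an adjusted p of 0.241, a comparison of 2 control with 3 mutant libraries in which 2 genes of the table were called.

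The transcript *Gm14261* overlaps the 5′ end of *Sall4* on the opposite strand, from 168766143 to 168768109. Its values were 0.401, 0.258, 0.147 and 0.358 in control and 0.786, 0.904, 1.13 and 0.888 in mutant libraries. The groups did not overlap, and in the fit over all genes *Gm14261* rose as well (log2 fold change 0.58, SE 0.08, adjusted p = 0.00995 in limma). Whether the counting used strand is not given in the sources used here, so reads in the shared stretch cannot be assigned to either gene. *Atp9a*, a flippase gene 5922 bases away, had means of 157.7 and 166.4 and an adjusted p of 0.803.

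The other Sall genes, which act in kidney, limb and nerve development, were expressed at far higher levels than *Sall4*. *Sall1* was at 39.2, 31.2, 30.1 and 19.5 in control and 15.1, 25.4, 11.3 and 25.6 in mutant libraries. Mutant libraries 1 and 3 were the lowest, and the groups overlapped through control library 4. The log2 fold change of -0.64 (SE 0.28) had an adjusted p of 0.361, and with the mean log2 level of the enamel genes as a covariate it was -0.99 with an adjusted p of 0.022. *Sall3* was at 90.5, 53.3, 58.2 and 45.2 in control and 28.2, 82.5, 43.5 and 74.9 in mutant libraries, so each group held both high and low libraries (adjusted p = 0.909). *Sall2* was at 33.4, 33.5, 30.9 and 30.5 against 30.4, 37.6, 27.7 and 35.1, with the controls within the range of the mutant (adjusted p = 0.973).

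*Tbx15*, a T-box factor of the limb and craniofacial skeleton and of coat pigment pattern, occupies bases 99240381 to 99354260 of chromosome 3 (plus strand). It was at 1.22, 1.78, 1.75 and 1.35 in control and at 3.64, 3.75, 3.78 and 6.23 in mutant libraries. Mutant library 4 was the highest, and the other 3 mutant libraries lay close together, above the highest control. The means were 1.53 ± 0.287 and 4.35 ± 1.26 (SD, n = 4 each), and the log2 fold change was 1.06 (SE 0.16, adjusted p = 0.0101 in limma, 0.0125 over all genes). Without the 3 enamel-rich libraries it was 1.13 with an adjusted p of 0.248. *Wars2*, a mitochondrial tRNA synthetase gene 1194 bases away, had means of 9.06 and 9.44 (adjusted p = 0.883). GENCODE places the transcript *Gm43120* on the opposite strand within *Tbx15*.

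The other genes of the *Tbx1* subgroup did not rise with *Tbx15*. *Tbx1*, which acts in pharyngeal arches and in dental epithelium, was at 72.2, 88.1, 76.8 and 78.8 in control and 94.2, 52.2, 52.5 and 66.2 in mutant libraries. Mutant library 1 held the highest value and mutant libraries 2 and 3 the lowest (log2 fold change -0.29, SE 0.17, adjusted p = 0.563). *Tbx22*, a factor of the palate, was at 0.673 to 2.58 in control and 0.396 to 0.955 in mutant libraries, which overlapped (adjusted p = 0.282 over all genes). *Tbx18*, a factor of mesenchyme in the heart and ureter, lay between 0.103 and 0.242 in all libraries.

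*Tbx2* and *Tbx3*, paired repressors of the limb and heart, were the most and the third most abundant T-box genes per kilobase. *Tbx2* was at 239.1, 149.0, 132.9 and 135.4 in control and 145.6, 238.9, 149.8 and 207.5 in mutant libraries. Control library 1 and mutant library 2 were equally high, so the groups overlapped over most of their range (log2 fold change 0.19, SE 0.22, adjusted p = 0.835). *Tbx3* was at 50.7, 44.6, 40.6 and 36.8 against 43.2, 53.4, 36.1 and 51.7 (adjusted p = 0.890). *Tbx3os1*, a transcript on the opposite strand of *Tbx3* that is no member and was chosen after its values were seen, was at 3.18, 3.26, 2.53 and 1.70 in control and 4.35, 4.95, 5.27 and 4.84 in mutant libraries. Its groups did not overlap (log2 fold change 0.69, SE 0.15, adjusted p = 0.0499 over the filter and 0.064 over all genes).

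*Tbx4*, a hindlimb and lung mesenchyme factor that neighbours *Tbx2*, was under the filter in all libraries. It was at 0.226, 0.148, 0.0860 and 0.138 in control and 0.284, 0.379, 0.368 and 0.465 in mutant libraries, an estimated 12, 10, 4 and 8 reads against 14, 24, 25 and 35. All mutant values were higher, although mutant library 1 exceeded control library 1 by only 2 reads, and the ratio of means was 2.51. The adjusted p over all genes was 0.0681. It was 0.0449 without mutant library 1 and 0.0655 to 0.238 without any other library, and up to 0.651 over the alternatives, the last without the enamel-rich libraries. *Tbr1*, a factor of cortical neurons, was at 0.417, 0.496, 0.447 and 0.459 against 0.682, 0.516, 0.651 and 0.619 (adjusted p = 0.293). *Eomes*, its relative in early mesoderm and lymphocytes, was at 0.417, 0.345, 0.309 and 0.535 against 0.190, 0.152, 0.325 and 0.0774, the last from an estimated 5 reads. Mutant library 3 overlapped the controls, and the adjusted p was 0.187. The remaining T-box genes, *T* of the notochord, *Tbx6* of the somites, *Tbx19* of the pituitary and *Tbx21* of T helper cells, were at 0.0153 to 0.774, with overlapping groups.

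**Figure D3:**
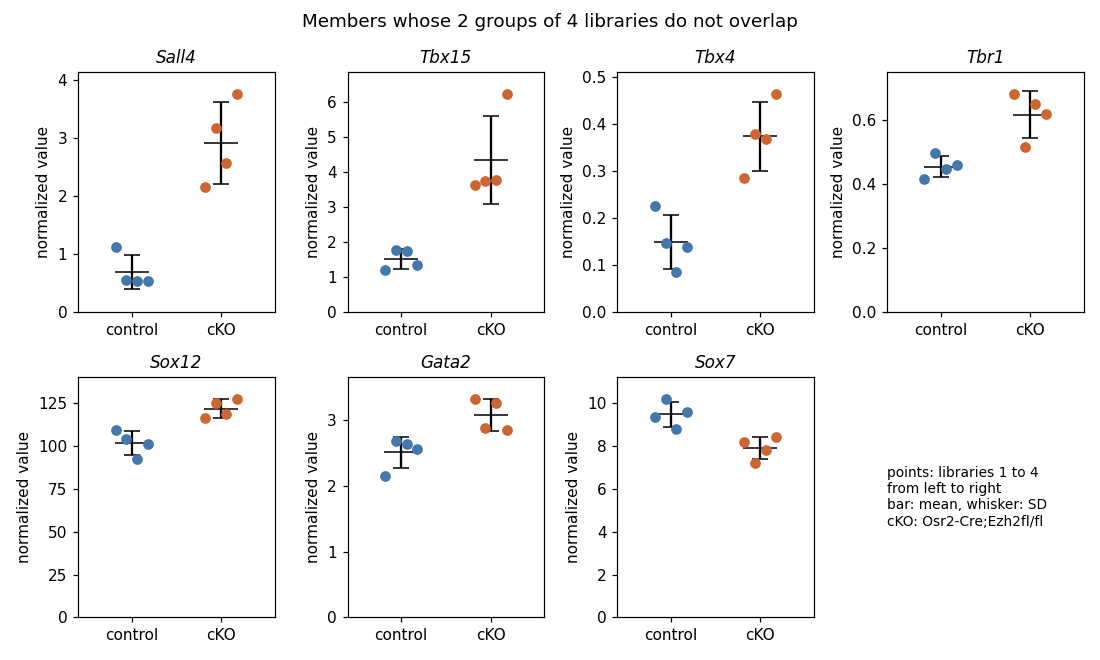
Normalized values of the 7 members whose groups do not overlap, with 4 control (blue) and 4 Osr2-Cre;Ezh2fl/fl libraries (orange, cKO) as points and the mean with its SD in black, each y axis starting at 0. The group means of *Sall4* and *Tbx15* differ 4.21-fold and 2.85-fold, while the ratio of mutant to control mean is 1.20 for *Sox12*, 1.23 for *Gata2* and 0.833 for *Sox7*.

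No Sox gene passed the adjusted threshold in limma or in voom. The SoxC genes *Sox4*, *Sox11* and *Sox12*, which act in progenitor cells and neurons, were abundant in all libraries. *Sox12* was at 109.5, 104.2, 92.3 and 101.2 in control and 116.1, 125.3, 118.4 and 127.4 in mutant libraries. Every mutant library was higher, by a ratio of means of 1.20 (log2 fold change 0.26, SE 0.07, adjusted p = 0.112). *Sox4* was at 144.9, 149.3, 150.7 and 140.9 against 114.0, 139.0, 138.1 and 148.2, with mutant library 1 the lowest (adjusted p = 0.636). *Sox11* ranged from 56.0 to 69.8 in control and from 48.7 to 58.9 in mutant libraries (adjusted p = 0.443).

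The SoxD genes *Sox5* and *Sox6*, partners of *Sox9* in cartilage, had the largest positive log2 fold changes of the Sox genes, carried by 3 of the 4 mutant libraries. *Sox6* was at 6.76, 7.63, 6.40 and 8.18 in control and 7.87, 16.5, 18.9 and 14.2 in mutant libraries. *Sox5* was at 9.05, 7.52, 8.68 and 7.13 against 6.58, 15.5, 15.1 and 13.5. Mutant library 1 was within the control range for *Sox6* and below it for *Sox5*, and mutant libraries 2 to 4 were above every control for both. The log2 fold changes were 0.84 (SE 0.22, adjusted p = 0.105) for *Sox6*, the Sox gene closest to the threshold, and 0.53 (SE 0.23, adjusted p = 0.365) for *Sox5*. Without mutant library 1 they were 1.09 (adjusted p = 0.00613) and 0.79 (adjusted p = 0.0117), in a fit that called 384 genes instead of 308. Without any other library the adjusted p was 0.166 to 0.311 for *Sox6* and 0.347 to 0.651 for *Sox5*, and over the alternatives it reached 0.712 and 0.988, both without the enamel-rich libraries. *Sox13*, the other SoxD gene, was at 12.7 to 23.7 in control and 11.5 to 17.2 in mutant libraries (adjusted p = 0.664).

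*Sox9*, the activator of cartilage matrix genes, was at 72.6, 63.1, 59.7 and 75.3 in control and 75.5, 73.6, 72.1 and 84.2 in mutant libraries. The groups overlapped through control libraries 1 and 4 (log2 fold change 0.18, SE 0.09, adjusted p = 0.473). Of its targets in cartilage, 3 of the 6 over the filter rose and none fell at an adjusted p under 0.05. *Col9a1*, a chain of cartilage collagen IX, was at 4.22, 3.66, 2.11 and 2.84 in control and 8.17, 24.0, 20.6 and 19.0 in mutant libraries (log2 fold change 2.10, adjusted p = 0.00838). *Acan*, which encodes aggrecan, and *Col2a1*, the main cartilage collagen, had log2 fold changes of 1.73 and 1.36 (adjusted p = 0.0101 and 0.0235). In these 3 genes mutant library 1 was the lowest mutant library, as it was for *Sox5* and *Sox6*, yet above every control. *Col9a2* did not pass (adjusted p = 0.0589 in limma), although its groups did not overlap, at 194 to 329 in control and 384 to 728 in mutant libraries. *Col11a2* had a log2 fold change of -0.24 (adjusted p = 0.452) and *Hapln1* of 0.22 (adjusted p = 0.754), both with overlapping groups. The summed level of the list, mostly *Col9a2*, *Col11a2* and *Hapln1*, was 695 to 851 in control and 789 to 1350 in mutant libraries, and the part of cartilage cells in the *Sox5* and *Sox6* values was not tested. *Runx2* of the osteoblast list did not pass (adjusted p = 0.0678), and bone matrix gene *Ibsp* was the 1 of 5 osteoblast genes that rose, with sums of 1140 to 1310 in control and 1480 to 1930 in mutant libraries.

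**Figure D4:**
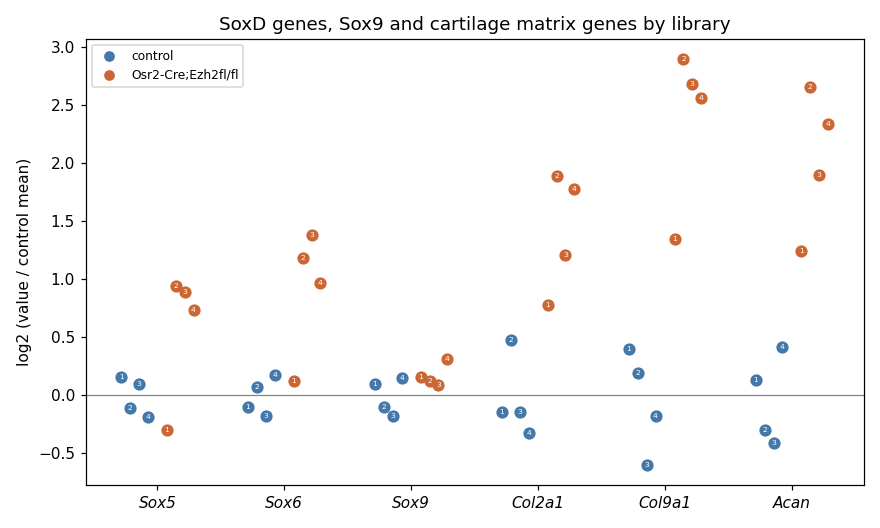
Log2 of each library's value over the control mean for *Sox5*, *Sox6*, *Sox9* and the cartilage matrix genes *Col2a1*, *Col9a1* and *Acan*, with the library number in each point (control blue, Osr2-Cre;Ezh2fl/fl orange). Mutant library 1 lies below the controls for *Sox5*, at 6.58, and among them for *Sox6*, at 7.87, while mutant libraries 2 to 4 lie above them.

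*Sox10*, the neural crest and glial member of the SoxE group, was low and uneven, at 0.104, 1.46, 0.378 and 0.520 in control and 0.360, 0.0910, 1.03 and 0.181 in mutant libraries. Control library 2 and mutant library 3 were the highest of their groups, and the groups overlapped (adjusted p = 0.875 over all genes). Of 7 genes of the Sox10 glial and melanocyte program over the filter, 1 fell, the neuregulin receptor gene *Erbb3* (log2 fold change -0.42, SE 0.09, adjusted p = 0.0388), and none rose. *Sox8* was at 0.467 to 1.00 over all libraries.

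The SoxF genes *Sox7*, *Sox17* and *Sox18*, factors of endothelium, gave the member with all mutant values below. *Sox7* was at 9.36, 10.2, 8.79 and 9.60 in control and 8.19, 7.22, 7.79 and 8.40 in mutant libraries. The lowest control and the highest mutant value lay close together, and the log2 fold change was -0.24 (SE 0.09, adjusted p = 0.259). *Sox17* was at 5.05 to 5.91 against 3.98 to 5.76 (adjusted p = 0.507), and *Sox18* at 14.4 to 18.7 against 14.2 to 19.3 (adjusted p = 0.857). Of the 8 endothelial markers, 0 passed the adjusted threshold in limma, at an unadjusted p under 0.05 limma held 1 higher and 3 lower, and voom called 0 after adjustment. The VEGF receptor gene *Kdr* and VE-cadherin gene *Cdh5* lay below the controls in every mutant library and *Erg* above. The summed level of the list did not overlap, at 399 to 455 in control and 367 to 393 in mutant libraries, and the part of endothelial cells in the *Sox7* values was not tested.

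The SoxB genes *Sox2* and *Sox21* are known from dental epithelium. *Sox21* was at 9.31, 12.3, 42.2 and 61.2 in control and 9.56, 5.06, 32.3 and 7.64 in mutant libraries. Its 3 high libraries were control 3, control 4 and mutant 3, the libraries with the most *Enam*, and the other 5 lay between 5.06 and 12.3. The log2 fold change of -1.08 (SE 0.66, adjusted p = 0.578) was -0.11 with the enamel genes as a covariate. The part of epithelial cells in this fold change was not tested. Single libraries moved it from -0.64 (without control library 4) to -1.59 (without mutant library 3). *Sox2* lay between 0.424 and 0.825 in all libraries, and *Sox1*, *Sox15* and *Sox30* had 1 to 59 estimated reads. Of 12 epithelial and ameloblast markers, 1 fell, the desmosome gene *Dsp* (log2 fold change -0.59, adjusted p = 0.0282), and the summed level of the list ranged from 3460 to 33700 in control and from 3290 to 14400 in mutant libraries.

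**Figure D5:**
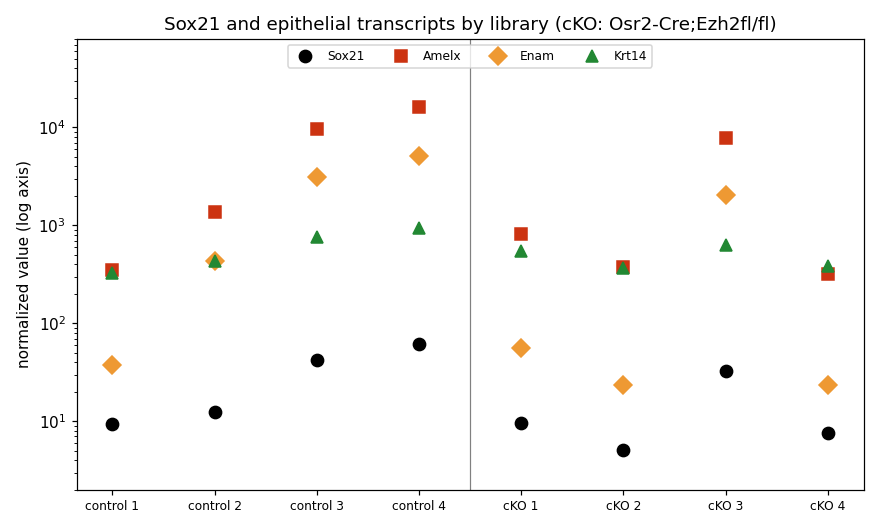
Normalized value (log axis) of *Sox21*, the enamel protein genes *Amelx* and *Enam* and the keratin gene *Krt14* in each of the 8 libraries, control left of the grey line and Osr2-Cre;Ezh2fl/fl (cKO) right of it. *Sox21* is highest at 42.2, 61.2 and 32.3 in control 3, control 4 and cKO 3, the libraries with the highest *Enam*.

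*Gata2*, a factor of blood progenitors, mast cells and endothelium, was at 2.15, 2.68, 2.63 and 2.55 in control and 3.32, 2.88, 3.25 and 2.85 in mutant libraries. The mutant values were all higher, by a ratio of means of 1.23, and the log2 fold change of 0.22 (SE 0.09) had an adjusted p of 0.356. *Gata3* of lymphocytes and skin was at 0.330, 0.335, 0.258 and 0.336 against 0.341, 0.273, 0.170 and 0.348. *Gata6* of heart and endoderm was at 0.278, 0.416, 0.206 and 0.551 against 0.341, 0.182, 0.877 and 0.194. The groups overlapped for both genes, which had 11 to 61 estimated reads in a library. None of 7 Gata cofactors and complex partners passed the adjusted threshold in limma, 1 (*Zfpm1*) was higher at an unadjusted p under 0.05, voom called 0, and the sums were 270 to 282 in control and 264 to 309 in mutant libraries. Among the partners of T-box and Gata factors in the heart, 1 of 3 rose, *Hand2*, from a mean of 0.162 ± 0.0490 to 6.11 ± 1.03 (SD, n = 4 each; log2 fold change 2.60, adjusted p = 2.7e-05 over all genes). *Hand2* was under 1 in every control library and so was among these 3 genes through its mutant libraries. Of the 5 Gli partners of Zic proteins, 0 passed after adjustment in limma or voom, 2 (*Gli1* and *Gli3*) were higher at an unadjusted p under 0.05, and all 4 mutant values of these 2 lay above the controls.

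Of the markers of other cells, 0 of 5 erythroid, 0 of 3 mast cell, 0 of 7 macrophage, 0 of 1 T and innate lymphoid cell, 0 of 3 neuron, 0 of 3 skeletal muscle and 0 of 5 odontoblast genes over the filter passed the adjusted threshold in limma or in voom. At an unadjusted p under 0.05 limma held 1 mast cell gene lower (*Kit*) and 2 odontoblast genes lower (*Dspp* and *Phex*), and 0 of the other 5 lists. The mast cell sums were 122 to 136 in control and 90.5 to 124 in mutant libraries, nearly all of it *Kit*, which was at 89.2 to 135 in all libraries. The mast cell protease genes *Cpa3*, *Tpsb2*, *Cma1* and *Mcpt4* were at 0.103 to 2.54 with overlapping groups, highest in control library 2 and mutant library 1. The neuron sums, mostly *Tubb3*, were 91.6 to 143 and 93.0 to 111. Of the 5 neuron genes in the table, 1 had groups that did not overlap, *Snap25*, which was under the filter. It was at 0.0344 to 0.275 in control and 0.336 to 0.455 in mutant libraries (adjusted p = 0.0735 over all genes in limma). The part of mast cells in the *Gata2* values and of neurons in the *Tbr1* values was not tested. Skeletal muscle sums were 6.66 to 41.2 and 4.16 to 10.2, with the highest in control library 4, and odontoblast sums 9330 to 11500 and 7480 to 9330.

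Promoter sequence was compared because CpG-rich promoters are typical of Polycomb targets. RefSeq (GRCm38.p6) promoter windows of 300 bases, 250 before and 50 after the start, could be used for 21 members with a start within 500 bases of the table's. The 21 include 2 of the 7 members whose groups did not overlap, *Sox12* and *Gata2*, and not *Sall4*, *Tbx15*, *Tbx4*, *Tbr1* or *Sox7*, so the comparison does not cover the called members. Their median was 18 CpG (the letters CG), from 1 to 47, against a median of 19 in 11404 genes matched the same way, and 76.2% of the members held at least 10 against 76.9% of those genes. TATAAA on either strand was in 9.52% of the members and 7.73% of those genes. The 250 bases upstream of 3 members are shown with each CpG in capitals. *Sox12* and *Gata2* are shown as the members without overlap that have a window, and *Tbx22* as the CpG-poor end of the range. In the 300-base windows *Sox12* held 47 CpG and *Gata2* 32, while *Sox13* and *Sox1*, whose groups overlapped, held 40 and 37.
Sox12 (chr2:152398047-152398296, minus strand, GRCm38.p6, 35 CpG): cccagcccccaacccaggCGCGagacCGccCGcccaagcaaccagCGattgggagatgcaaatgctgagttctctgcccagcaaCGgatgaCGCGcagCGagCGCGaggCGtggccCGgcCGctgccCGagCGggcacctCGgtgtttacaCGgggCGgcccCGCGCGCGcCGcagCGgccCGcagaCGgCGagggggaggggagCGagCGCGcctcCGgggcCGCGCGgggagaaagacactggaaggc
Gata2 (chr6:88193641-88193890, plus strand, GRCm38.p6, 22 CpG): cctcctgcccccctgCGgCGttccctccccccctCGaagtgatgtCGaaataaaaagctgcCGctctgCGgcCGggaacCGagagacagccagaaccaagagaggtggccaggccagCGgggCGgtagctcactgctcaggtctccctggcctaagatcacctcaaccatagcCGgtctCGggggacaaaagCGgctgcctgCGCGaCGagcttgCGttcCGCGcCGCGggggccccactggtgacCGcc
Tbx22 (chrX:107667714-107667963, plus strand, GRCm38.p6, 1 CpG): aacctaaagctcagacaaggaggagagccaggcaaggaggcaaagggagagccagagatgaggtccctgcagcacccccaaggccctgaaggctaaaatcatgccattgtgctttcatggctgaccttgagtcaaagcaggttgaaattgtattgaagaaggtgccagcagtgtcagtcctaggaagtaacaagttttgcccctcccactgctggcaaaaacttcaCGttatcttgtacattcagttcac
These letters are a description of the windows and say nothing of a factor or mark at them.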

How the data were processed

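The authors aligned single-end reads to mm10 and, by the study's methods, used TopHat and RPKM, whereas the submitters' processing notes name STAR 2.5.3a, Partek and CASAVA 1.8.2. The deposited values were treated as a normalized signal, neither RPKM nor counts: they carry no gene-length factor, their 75th percentile is the same in each library, and 61.2% of low values (under 20 times the library's smallest) are whole multiples of the smallest within 0.01. Estimated reads are the value over the library's smallest value, minus 1. They only rescale the value, so they hold the spread between libraries as well as counting error. Groups and replicate numbers were taken from the sample titles and genotype labels. The study's methods mention 4 samples per group and also sequencing of 3 pairs of samples, without saying which libraries form a pair, and all 8 libraries were used without a pairing. The table has 0 columns of other samples.

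Differences were fitted with limma 3.58.1 in R 4.3.3 (lmFit, eBayes with trend) on log2(value + 1). The fit took the 14854 genes that reached 1 in 4 or more libraries, and was repeated over all 20926 genes. Benjamini-Hochberg adjustment was made over each whole fit, with a threshold of 0.05. Exact permutation tests of single genes were two-sided and used 70 arrangements. The members, lists and tests were chosen with earlier results of these data known. Members named with every library's value were those called in either fit, those with an unadjusted p under 0.05 and no overlap of the groups, the 3 highest per kilobase of each family, and the closest to the threshold where a family had none. *Sox5*, *Sox10*, *Sox21* and *Eomes* were given in the same way outside this rule, chosen after their values were seen. Neighbours were genes within 10000 bases of a called member. Exon lengths came from GENCODE M21, in which 33 of the 37 members had the table's chromosome and start. *Gata6*, *Sox10* and *Tbx1* were among the exceptions. Python 3.11.15, pandas 2.3.3 and matplotlib 3.10.9 were used for summaries and plots. The alternatives were a pseudocount of 0.1, a filter at 10 or none, median-of-ratios scaling, quantile normalization, limma without the trend, voom on estimated reads, the replicate number as a block, *Xist* or enamel gene levels as a covariate, and each library left out in turn. Leaving out the 3 enamel-rich libraries was added after the data were seen.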

Additional observations from a re-analysis of the deposited data

Results flagged for a closer look

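In 6 groups of 4 libraries, out of 76 examined for the 37 members and *Ezh2*, 1 library stood far from the other 3. By chance about 1 in 20 groups does so, or 3.8 of 76. *Sall4* in control library 1 was 1.128, an estimated 64 reads, against 0.541 to 0.547 in the other controls. *Tbx15* in mutant library 4 was 6.233 against 3.64 to 3.78. *Ezh2* itself was 54.95 in control library 1 against 38.3 to 39.6. *Sox18* in control library 1 was 14.42 against 18 to 18.7 in the other controls. *Sox2* in mutant library 1 was 0.7961 against 0.424 to 0.465, and *Gata3* in control library 3 was 0.2579, an estimated 14 reads, against 0.330 to 0.336.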

How the results depend on the processing

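*Sall4* and *Tbx15* kept their direction in every alternative run, with log2 fold changes of 1.07 to 2.17 and 0.91 to 1.51. Among genes over the filter, 0 members were called instead of 2 with the replicate block, 0 with a filter at 10, where neither gene is tested, and 0 without the 3 enamel-rich libraries, beside 73, 119 and 2 genes in all instead of 308. The count ranged from 2 to 4 when each library was left out, with 4 (*Sox5* and *Sox6* added) without mutant library 1, beside 128 to 384 genes in all, the highest also without mutant library 1. Over all genes it was 0 with the block and 0 without the enamel-rich libraries, and 2 to 5 with a library left out, where *Tbx4* was the fifth without mutant library 1, beside 62, 2 and 126 to 475 genes in all instead of 327. With the enamel genes as a covariate it was 3 in both fits, *Sall1* being added. With the block *Sall4* and *Tbx15* had adjusted p of 0.0551 and 0.0595. Same-numbered libraries deviated from their group means with correlations of -0.342, -0.0769, 0.215 and -0.434. These take in every difference between libraries, enamel transcripts and sex included, so they cannot decide whether the samples were paired. As the sources do not say which libraries pair, the main fits used no pairing. Members without overlap numbered 7 in the full set, 7 to 12 with a library left out (11 without control library 4, 12 without mutant library 1) and 15 without the enamel-rich libraries. Over all genes these counts were 1716, 1972 to 2836 (2272 and 2817 without those 2 libraries) and 4766, so they grew in the whole table too. *Ezh2* had -0.637 (adjusted p = 0.0274) with the enamel genes as a covariate and -0.53 to -0.325 with a library left out.

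The direction reversed for *Sall2* with median-of-ratios scaling (from 0.0175 to -0.00446, about as far as the median of all genes moved), with the enamel genes as a covariate (-0.0765) and with a library left out (-0.0507 to 0.092), for *Sall3* with a library left out (-0.394 to 0.111), for *Sox18* without the enamel-rich libraries (0.0502), and for *Tbx2* (-0.0659) and *Tbx3* (-0.0925) with the enamel genes as a covariate. The cause of the others was not tested. Of 441 values for 24 named members, 423 kept direction and side of the threshold, 10 reversed, 4 came to pass it and 4 no longer passed it. Other scalings moved the median log2 fold change of all genes tested from 0.01265 to -0.008225 (median-of-ratios) and -0.003749 (quantile). A precision of 3 reads limits the members under the filter.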
